A study of Homo sapiens with 80 samples.

Results

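The genes of sarcoplasmic reticulum calcium handling described here were 10 named genes, RYR2, ATP2A2, PLN, SLN, CASQ2, TRDN, JPH2, HRC, SLC8A1 and ASPH. They were chosen by name and not by a rule on their values, though with earlier results of these data known. All 10 were among the 43388 genes of each deposited table of TPM (a transcript level scaled for transcript length and library depth). The questions were in which order they came on while human pluripotent stem cells became cardiomyocytes, how they differed between differentiations of high and low purity, and how the phospholamban gene PLN compared with the sarcolipin gene SLN.

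The series held 80 RNA sequencing libraries, 56 from a multi-omic collection and 24 from an RNA-only collection. All cells received CHIR99021, an activator of WNT signalling, on day 0 and later IWP2, which blocks the secretion of WNT proteins. Flow cytometry for cardiac troponin T at the end of each differentiation set its class, high or low purity, so a library of an early day carries the class of its later outcome. None of the groups carried an engineered allele according to the labels. The multi-omic libraries were poly(A) RNA of WTC11, a human induced pluripotent stem cell line. Its 25 high purity libraries were wells of a single differentiation at passage 52, and its 31 low purity libraries were wells of a single differentiation at passage 69. The class therefore cannot be told apart from the passage or from the differentiation itself there, and p-values measure only the spread between wells. Each class had 4 wells on days 0, 2, 4 and 6. The high and low purity differentiations had 3 and 4 wells on day 8, 1 and 4 on day 10, 2 and 4 on day 13, and 3 and 3 on day 16. Day 10, with its single high purity well, was described and not tested. The RNA-only libraries were total RNA, 1 for each line, class and stage, from WTC11 (low purity at passage 69, high at 81), from IMR90-4, another induced pluripotent line (high at 55, low at 75), and from the embryonic stem cell line H9 (low at 55, high at 58). Its 4 stages were days 0, 2, 4 and 6 in WTC11 and days 0, 3, 5 and 7 in IMR90-4 and H9.

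In a working heart muscle cell, a calcium current through the surface membrane opens the ryanodine receptor RYR2, and calcium leaves the sarcoplasmic reticulum to start contraction. RYR2 sits in a junction that junctophilin 2 (JPH2) holds against the surface membrane, and it is anchored to the store by triadin (TRDN) and by junctin, one of the products of ASPH. Inside the store calcium is bound by calsequestrin 2 (CASQ2) and by the histidine-rich calcium-binding protein HRC. Relaxation follows when the pump SERCA2 (ATP2A2) takes calcium back up and the sodium-calcium exchanger NCX1 (SLC8A1) carries it out of the cell. Phospholamban and sarcolipin are small membrane proteins that inhibit the pump, and in the heart sarcolipin is known as the atrial form. ATP2A2 is also expressed outside muscle, and ASPH encodes an aspartyl hydroxylase of many tissues besides junctin.

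PLN and SLC8A1 were the members that differed most between the classes on day 4, so the 250 bases before the start of each are shown. Both are from RefSeq on GRCh38.p14, whose table of promoters held 8 of the 10 members. Capitals mark matches of the GATA-type motifs AGATAA and TGATAA on either strand, and in SLC8A1 also of the MEF2-type motif TAAAAATA on the opposite strand, which overlaps the TGATAA match.
PLN promoter, chr6:118548046-118548295, plus strand: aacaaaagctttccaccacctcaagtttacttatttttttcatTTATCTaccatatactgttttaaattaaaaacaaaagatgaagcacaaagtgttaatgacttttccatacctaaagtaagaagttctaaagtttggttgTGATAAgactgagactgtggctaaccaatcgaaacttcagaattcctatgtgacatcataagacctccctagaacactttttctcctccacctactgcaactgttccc
SLC8A1 promoter, chr2:40512436-40512685, minus strand: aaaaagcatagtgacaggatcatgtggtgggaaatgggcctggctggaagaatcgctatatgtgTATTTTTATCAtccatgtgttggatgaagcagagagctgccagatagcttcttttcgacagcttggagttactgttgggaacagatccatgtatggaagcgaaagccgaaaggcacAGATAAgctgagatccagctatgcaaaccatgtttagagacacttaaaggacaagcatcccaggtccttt
AGATAA was found in 9.37% and TGATAA in 6.89% of the 27305 promoters searched over the same length. Both together were in 366 promoters (1.34%), and among the 8 members in PLN and SLC8A1. TAAAAATA was in 2.08% of all promoters, and in those of SLC8A1 and CASQ2 among the members. Of the other motifs searched on both strands, CATTCC was in RYR2 and HRC (11.9% of all promoters) and the E-box CANNTG in 7 of the 8 members (62.2%), while TATAAA (11.1%) and the CArG box (1.14%) were in 0 of the 8. A match describes these letters and does not show a bound site.

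Library depth was 6579715 to 18143597 reads in the multi-omic collection and 17990882 to 40357968 in the RNA-only collection. The column names of the multi-omic count table were crossed against those of its TPM table, with 0 of 56 libraries under the same name in both, and the TPM names were used. The nearest of the other 55 comparable libraries belonged to the same class and day for 54 of them under the TPM names and for 28 under the count names. The label cardiomyocyte was checked on 8 markers (TNNT2, TNNI1, MYH6, MYH7, MYL7, ACTN2, MYBPC3 and TTN), whose summed level on day 16 was 11900 to 14000 TPM in high purity wells and 4200 to 6240 TPM in low purity wells. A change was called at an adjusted p (Benjamini-Hochberg over all 25664 genes tested) below 0.05 and a fold change of at least 1 on the log2 scale, with limma on log2(TPM + 1) after scaling between libraries. That scale understates changes of genes near 1 TPM, and levels are given as deposited. In such bulk RNA, fewer cells of a type and less RNA per cell cannot be told apart.

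By day 16 the order of levels in the high purity wells was PLN, SLC8A1, RYR2, ATP2A2, HRC, TRDN, ASPH, JPH2, SLN and CASQ2. PLN stood at 726, 855 and 889 TPM and SLC8A1 at 546, 594 and 530 TPM. RYR2 stood at 278, 293 and 276 TPM and ATP2A2 at 258, 272 and 274 TPM. No neighbours in that order overlapped except SLN (1.89 to 6.75 TPM) and CASQ2 (1.71 to 2.28 TPM). The low purity wells had PLN first as well, at 453 to 773 TPM. There SLC8A1 (170.2 to 277 TPM) overlapped with ATP2A2 (187 to 235 TPM). RYR2 came next at 66.3 to 99.3 TPM, and ASPH, HRC, TRDN and JPH2 followed with each overlapping the next.

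**Figure D1:**
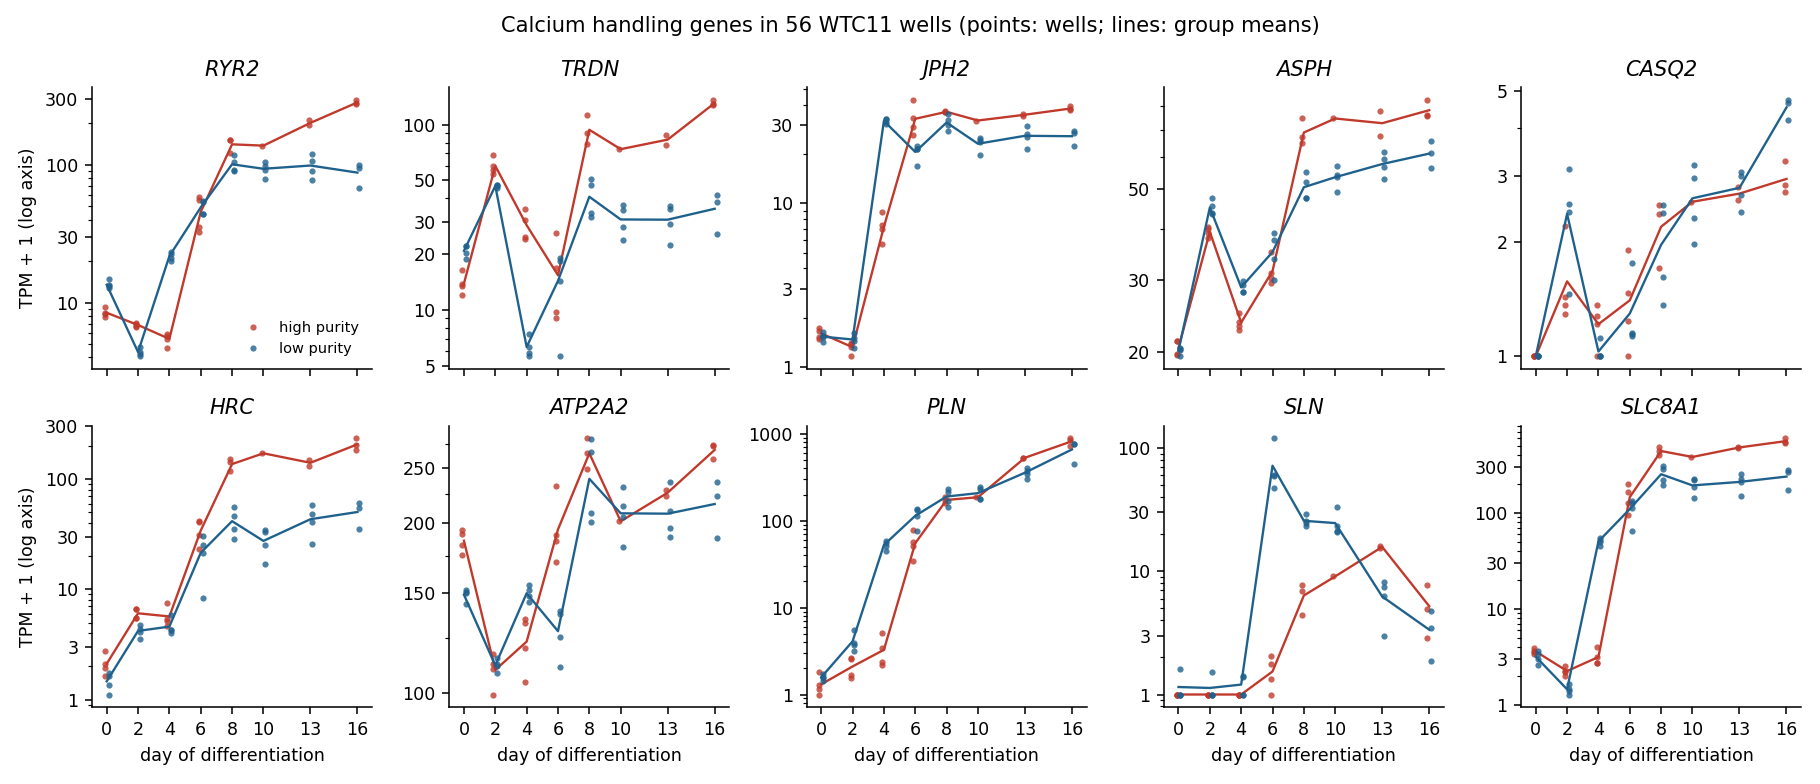
Level of each of the 10 genes in every multi-omic well (points, TPM on a log axis with 1 added) against day of differentiation, with lines through the means of the high and low purity differentiations. PLN, SLC8A1, RYR2 and JPH2 lie higher in low purity wells on day 4, and RYR2, TRDN, HRC and SLC8A1 lie higher in high purity wells on day 16.

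The order of onset was read from each later day against day 0 within a differentiation, taking as onset the first day from which a gene was called higher on that and every later tested day. In the high purity differentiation HRC came first on day 2, followed by PLN and JPH2 on day 4, RYR2 and SLC8A1 on day 6, and SLN, CASQ2, TRDN and ASPH on day 8. The low purity differentiation had HRC and PLN on day 2, JPH2 and SLC8A1 on day 4, RYR2 and SLN on day 6, ASPH on day 8 and CASQ2 on day 13. ATP2A2 had no onset in either, since it stood at a mean of 184.9 TPM (high) and 148.2 TPM (low) already on day 0 and at 268 and 214.8 TPM on day 16. PLN, SLC8A1 and SLN each came on a tested day earlier in the low purity differentiation, CASQ2 came on later, and HRC, JPH2, RYR2 and ASPH on the same day. Some calls on day 2 did not hold on the next tested day and so were not counted as onsets. TRDN was called higher on day 2 in both differentiations (2.08 in high, 1.01 in low), and it was not called on day 16 in the low. CASQ2 (1.19) and ASPH (1.01) were called higher on day 2 in the low purity differentiation alone. By the first called day, CASQ2 and ASPH would thus both be at day 2 in the low and day 8 in the high purity differentiation. The difference in onset day between the classes was not itself tested. The onsets of HRC and PLN rested on small early rises, and levels gave another order. On day 4 of the high purity differentiation, HRC, PLN and JPH2 stood at 2.27%, 0.276% and 16.7% of their highest daily means. By day 8 there, PLN was at 21.0%, RYR2 at 49.5%, HRC at 66.1%, SLC8A1 at 78.7% and JPH2 at 95.1%. In the low purity differentiation JPH2 had its highest mean on day 4, and PLN was at 28.6% of its own on day 8.

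In numbers, 2, 3, 5, 9, 9 and 9 of the 10 members were called higher on days 2, 4, 6, 8, 13 and 16 of the high purity differentiation, with none lower. Of all genes tested, 9.66%, 10.8%, 13.1%, 14.1%, 19.0% and 19.4% were called higher on those days. The low purity differentiation had 5, 4, 6, 7, 8 and 8 members called higher, against 11.0%, 12.8%, 15.9%, 17.2%, 20.4% and 19.5% of all genes. RYR2 and SLC8A1 were called lower there on day 2 (6.87% of all genes called lower), and TRDN on day 4 (9.35%). The median change of the members from day 0 to day 16 was 4.16 on the log2 scale in the high and 2.44 in the low purity differentiation, and that of all genes was 0.05 and 0.09.

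Onsets of the lowest genes depended on the scale. With a pseudocount of 0.1 TPM in place of 1, PLN in the high purity differentiation moved from day 4 to day 2, SLN there from day 8 to day 6, and CASQ2 to day 2 (high) and day 6 (low). Counts recovered from the TPM values moved SLN and CASQ2 in the same way with edgeR, and PLN, SLN and CASQ2 with DESeq2. Under these settings SLN came on on day 6 in both differentiations and CASQ2 earlier in the high, and with the smaller pseudocount or DESeq2 PLN came on on day 2 in both.

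**Figure D2:**
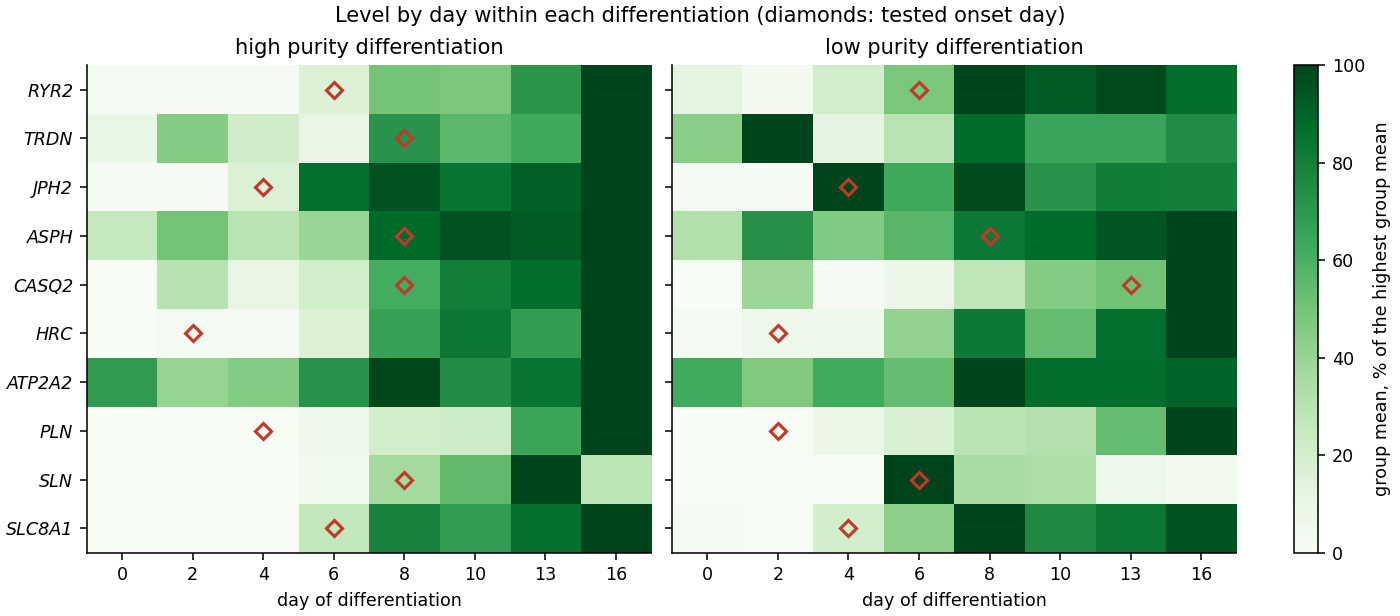
Shading gives the mean TPM of each gene (rows) on each day (columns) as a percent of its highest daily mean within the high and the low purity differentiation, and diamonds mark the day of tested onset by limma against day 0. HRC has the earliest onset, on day 2 in both, and no onset is drawn for ATP2A2 in either class or for TRDN in the low purity class.

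Between the classes, 0 of the 10 members were called on days 0 and 2, where 1.07% and 5.33% of all genes were called. At the same days 3 and 6 members had an unadjusted p under 0.05 by limma, and edgeR on recovered reads called 0 and 2. For these other rules the share of all genes is not given, so the counts do not set the members apart from other genes. On day 4 the low purity wells held more RYR2, PLN, JPH2 and SLC8A1 and less TRDN, so that 5 members were called (4 higher in low, 1 higher in high) where 7.84% of all genes were (4.22% and 3.62%). On day 6 PLN and SLN were called, both higher in low purity wells (8.8% of all genes called, 5.19% in that direction). From day 8 the direction was the other way for most: 3 members were called higher in high purity wells and SLN higher in low purity wells on day 8 (12.2% of all genes, 4.66% higher in high and 7.5% higher in low). Day 13 had 5 members called, all higher in high purity wells (10.8%, 4.55% in that direction), and day 16 had 4, all higher in high purity wells (13.4%, 5.76% in that direction). High and low purity wells did not overlap for 7 of 10 members on day 4 and for 8 of 10 on day 16, as for 31.7% and 47.6% of all genes. The median difference of the members, high minus low, on the log2 scale was -0.28, 0.10, 0.56, 1.00 and 0.80 on days 4, 6, 8, 13 and 16, and that of all genes lay between -0.025 and 0.01 on the 7 days.

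**Figure D3:**
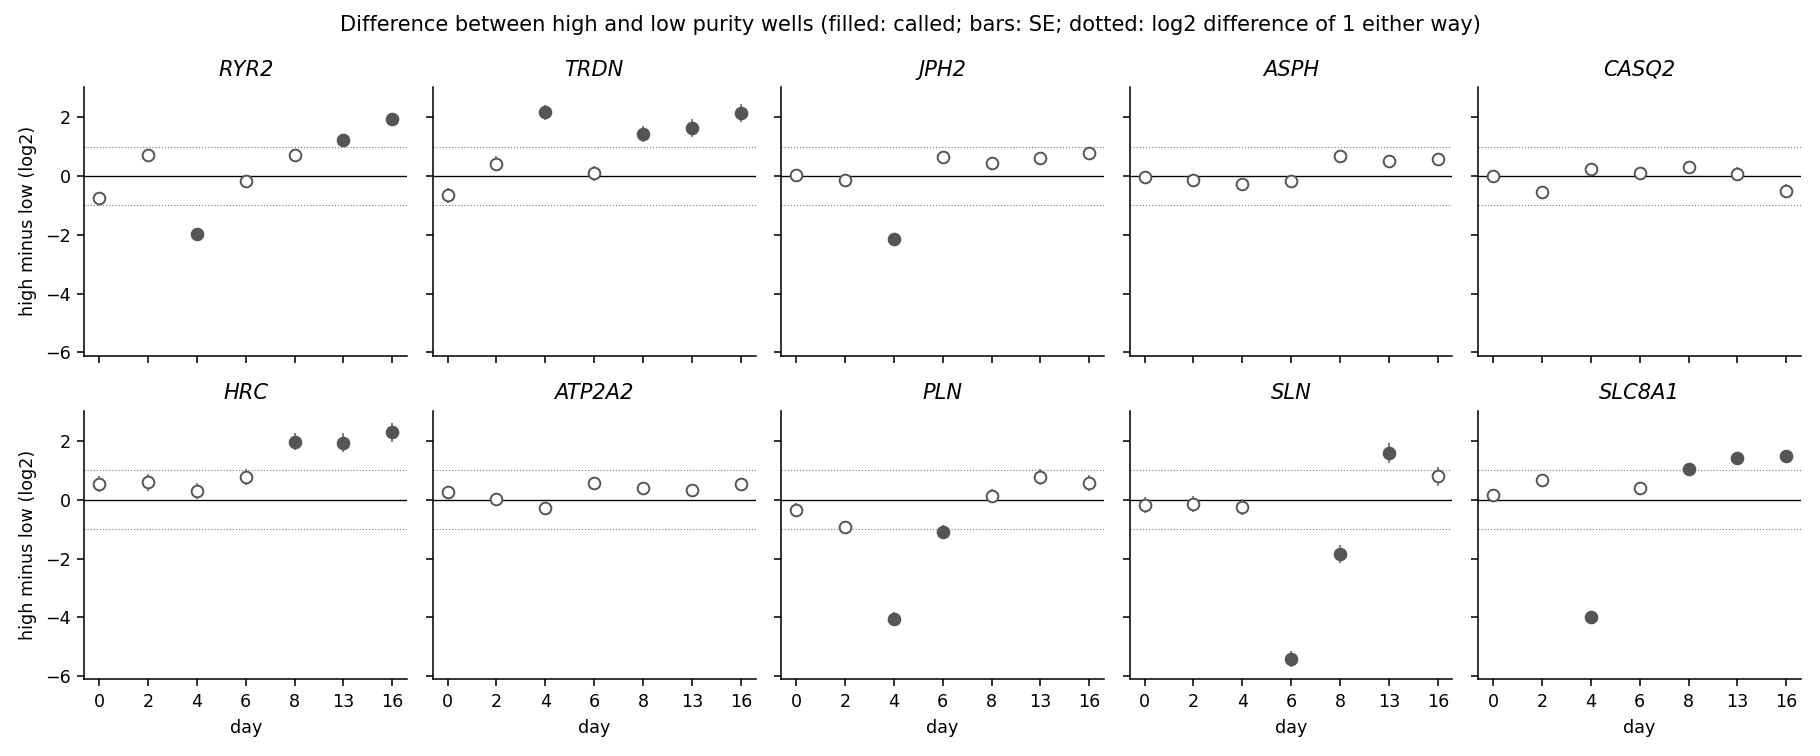
Difference between the classes for each gene and tested day (log2 of scaled TPM + 1, high minus low) with its standard error from limma. Values below 0 on day 4 for PLN (-4.06), SLC8A1 (-3.98), JPH2 (-2.16) and RYR2 (-1.98) are followed on day 16 by values above 0 for these genes, of which RYR2 and SLC8A1 were called.

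Cardiomyocyte markers moved on the same days. On day 4, 6 of the 8 were called higher in low purity wells, with summed levels of 1260 to 1410 TPM against 124 to 171 TPM. On days 8, 13 and 16, 6 of the 8 were called higher in high purity wells. Fibroblast and stromal markers (COL1A1, COL3A1, DCN, LUM, POSTN and PDGFRA) were called higher in low purity wells for 4 of 6 genes on day 4 (1140 to 1200 TPM against 276 to 424 TPM) and for 5 of 6 on day 16 (8590 to 11600 TPM against 454 to 542 TPM). Smooth muscle markers were called higher in low purity wells for 3 of 4 tested genes on day 16 (1170 to 1290 TPM against 197 to 217 TPM), with MYH11 listed at 0 in every library. They were also higher there for 3 of 4 on day 4 (276 to 343 TPM against 65.7 to 80.5 TPM). All 5 epicardial markers were called higher in low purity wells on day 16 (221 to 302 TPM against 9.11 to 12.1 TPM). Not all lists of other cell types went that way. Of 4 endoderm markers, 3 were called higher in high and 1 higher in low purity wells on day 16. Their summed level was 97.4 to 470 TPM in high and 409 to 1150 TPM in low purity wells. Endothelial markers were split 2 and 2 on that day (34.7 to 39.9 TPM in high and 156 to 235 TPM in low purity wells). Pluripotency markers were called higher in high purity wells for 2 of 4 genes on day 4 (1280 to 1670 TPM against 781 to 892 TPM). Of 8 skeletal muscle markers, ACTA1 and CKM, which heart muscle also expresses, reached 284 and 292 TPM and MYF5 16.0 TPM, while MYOG, MYH3 and PAX7 stayed at or below 2.76 TPM, MYOD1 at or below 0.692 TPM and MYH8 at or below 0.17 TPM. Their summed level on day 16 was 261 to 334 TPM in high and 106 to 189 TPM in low purity wells, with 1 of 5 tested called higher in high purity wells. The part of these cell mixtures in the results was not tested, other than by the comparison with sarcomere genes given below.

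Among the genes of the release channel and its junction, RYR2 itself was lower in high than in low purity wells on day 4 and higher on day 16. It stood at 4.47, 3.72, 4.69 and 4.95 TPM in the high purity wells of day 4 and at 22.3, 21.7, 20.1 and 19.0 TPM in the low purity wells, with no overlap. The difference was -1.98 (SE 0.13, adjusted p = 9.39e-17 by limma). On day 16 its 3 high purity wells (276 to 293 TPM) lay above its 3 low purity wells (66.3, 94.3 and 99.3 TPM), a difference of 1.93 (SE 0.15, adjusted p = 1.42e-14). Low purity wells reached their highest mean, 99.8 TPM, on day 8, whereas the high purity means of days 8, 13 and 16 were 139.6, 200.1 and 282 TPM.

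TRDN was the member with the least simple course. It was already at 11.0 to 15.4 TPM (high) and 17.9 to 21.2 TPM (low) on day 0, and at 53.3 to 67.4 TPM and 44.4 to 46.4 TPM on day 2, before RYR2 had risen in either class. On day 4 the high purity wells held 23.6, 29.7, 34.1 and 23.2 TPM and the low purity wells 4.88, 6.40, 5.32 and 4.63 TPM. The high purity wells were thus all above the low, by 2.17 (SE 0.26, adjusted p = 1.81e-09 by limma), opposite in direction to RYR2 on that day. RYR2 TPM over TRDN TPM averaged 0.166 (high) and 3.96 (low) on day 4, and 2.17 and 2.56 on day 16. TRDN ended at 127 to 135 TPM in high and at 24.7 to 40.7 TPM in low purity wells, and the day 16 difference was 2.15 (SE 0.30, adjusted p = 4.84e-08).

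JPH2 came close to its highest levels by days 4 to 6. On day 4 it stood at 5.96, 4.63, 6.41 and 7.81 TPM in high and at 29.7, 32.1, 30.3 and 31.8 TPM in low purity wells, whose mean of 31.0 TPM was the highest that the low purity differentiation reached. The difference was -2.16 (SE 0.11, adjusted p = 1.31e-20 by limma). In high purity wells it stood at 25.2 to 41.9 TPM on day 6, 85.9% of its highest mean on average, and at 36.1 to 38.4 TPM on day 16. Low purity wells held 21.5 to 26.7 TPM on day 16, all below the high purity wells, and the difference of 0.79 was under the fold required. ASPH rose from a mean of 19.5 TPM (high) and 19.1 TPM (low) on day 0 to 77.1 and 60.1 TPM on day 16. It passed the p threshold on 5 of the days between the classes, but no difference exceeded 0.67 on the log2 scale. Its counts may include reads of CLVS1, whose exons on the opposite strand overlap 5.44% of its exon bases, since the counting is not stated to use strand.

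Of the calcium binders of the lumen, HRC was abundant and CASQ2 scarce. HRC stood at 0.633 to 1.76 TPM on day 0 in high purity wells, at 4.52 to 5.62 TPM on day 2, and at 233, 202.5 and 181 TPM on day 16. The low purity wells had 0.112 to 0.734 TPM on day 0, 2.53 to 3.72 TPM on day 2, and 34.2, 60.0 and 53.7 TPM on day 16. High and low purity wells did not overlap on day 16, and HRC had the greatest difference of the members on that day, 2.29 (SE 0.32, adjusted p = 5.05e-08 by limma). CASQ2 had 0 reads in all 8 wells of day 0 and never exceeded 3.75 TPM. On day 16 it was at 1.71, 2.28 and 1.83 TPM in high and at 3.66, 3.75 and 3.21 TPM in low purity wells (21 to 29 and 28 to 50 reads). It was the sole member with every low purity well above every high purity well on that day, though the difference of -0.49 was not called. HRC TPM exceeded CASQ2 TPM by a mean factor of 108 in high and 14.0 in low purity wells of day 16.

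For calcium uptake, ATP2A2 stayed within a narrow range while PLN came on beside it. ATP2A2 lay between 98.4 and 281 TPM in all 56 libraries. Its difference between the classes was greatest on day 6, where high purity wells held 231, 189, 184.8 and 169 TPM and low purity wells 139, 137, 125 and 110.2 TPM, a log2 difference of 0.58 (SE 0.08, not called). PLN stood at 0 to 0.799 TPM in all 8 wells of day 0 (0 to 14 reads). On day 4 the high purity wells held 2.44, 1.39, 1.16 and 4.09 TPM and the low purity wells 56.9, 54.6, 44.5 and 50.7 TPM. No wells overlapped, and the difference was -4.06 (SE 0.23, adjusted p = 2.33e-19 by limma), the greatest of the members on that day. On day 6 the wells overlapped, at 33.5 to 76.7 TPM (high) and 74.7 to 135 TPM (low), with a difference of -1.09 (SE 0.23, adjusted p = 1.12e-04). That call was lost without high purity well 3 (-0.89) or low purity well 2 (-1.00). By day 16 PLN was at 726 to 889 TPM in high and 453, 773 and 759 TPM in low purity wells, a difference of 0.57 (SE 0.26, adjusted p = 0.074, not called).

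The amount of inhibitor RNA per pump RNA had a wide span. PLN TPM over ATP2A2 TPM averaged 0.00172 (high) and 0.00389 (low) on day 0. It was 0.0187 and 0.346 on day 4, then 0.655 and 0.790 on day 8, and in the end 3.07 (2.81 to 3.25) and 3.04 (2.42 to 3.42) on day 16. The wells of the classes were apart on day 4 and overlapped on day 16.

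SLN differed from PLN in both its time and its amount. High purity wells had 0 SLN reads on days 0, 2 and 4, which allows up to about 1 TPM (3 reads, 0.927 TPM on day 4), and 1, 2, 0 and 3 reads on day 6. Low purity wells had at most 1 read up to day 4 and then 58.4, 46.3, 59.4 and 119 TPM on day 6 (109, 80, 121 and 209 reads). Pooled over wells, SLN reads per total reads on day 6 were 127-fold higher in low purity wells (exact 95% interval 57.8 to 347, counting error only). All low purity wells lay above all high purity wells, and the difference was -5.41 (SE 0.28, adjusted p = 3.37e-20 by limma).

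That lead did not last. On day 8 the high purity wells held 6.69, 5.94 and 3.43 TPM and the low purity wells 22.3, 28.3, 24.6 and 23.4 TPM, a difference of -1.84 (SE 0.30, adjusted p = 2.19e-06 by limma). Day 13 had the order the other way, with 15.1 and 14.4 TPM in high and 5.29, 1.96, 6.51 and 7.16 TPM in low purity wells, a difference of 1.61 (SE 0.34, adjusted p = 1.90e-04), which with a pseudocount of 0.1 was 1.82 and not called. On day 16 SLN was at 1.89 to 6.75 TPM and 0.859 to 3.74 TPM, and the wells overlapped. The mean SLN level thus had its maximum on day 6 in the low purity differentiation (70.7 TPM) and on day 13 in the high purity differentiation (14.7 TPM). On day 6, 1 of 7 atrial markers was called higher in high and 2 of 7 higher in low purity wells, where 3.61% and 5.19% of all genes were, with a median difference of -0.36. Their summed level, to which MYL4 can add up to 2870 TPM in a library, was 664 to 1070 TPM in high and 535 to 860 TPM in low purity wells, and their part in the SLN result was not tested.

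The log2 ratio of PLN to SLN (each TPM + 1) put these courses side by side within a library. High purity wells went from 0.36 ± 0.36 (SD, n = 4) on day 0 to 1.63 ± 0.56 and 5.16 ± 0.49 on days 4 and 6 and 7.42 ± 0.77 (n = 3) on day 16. Low purity wells were at 0.49 ± 0.43 (n = 4) on day 0 and 5.47 ± 0.29 on day 4, then at 0.73 ± 0.96 on day 6, 2.87 ± 0.20 on day 8 and 7.69 ± 0.87 (n = 3) on day 16. Low purity well 4 of day 6 held more SLN (119 TPM) than PLN (74.7 TPM). The difference high minus low was -0.82, -3.84, 4.43 and 1.94 on days 2, 4, 6 and 8. On days 2 and 4 SLN had at most 1 read in a well, so the ratio there gives PLN over a near-constant pseudocount and repeats the difference of PLN itself (-0.94 and -4.06). On each of these days high and low purity wells did not overlap, and a two-sided exact permutation test gave p = 0.0286, which is the lower limit for these numbers of wells. Adjusted over the 7 days it was 0.05, at the threshold and not below it. The differences on days 0, 13 and 16 (-0.13, -0.86 and -0.27) had exact permutation p of 0.657, 0.267 and 0.6, where days 13 and 16 could not go below 0.0667 and 0.1.

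**Figure D4:**
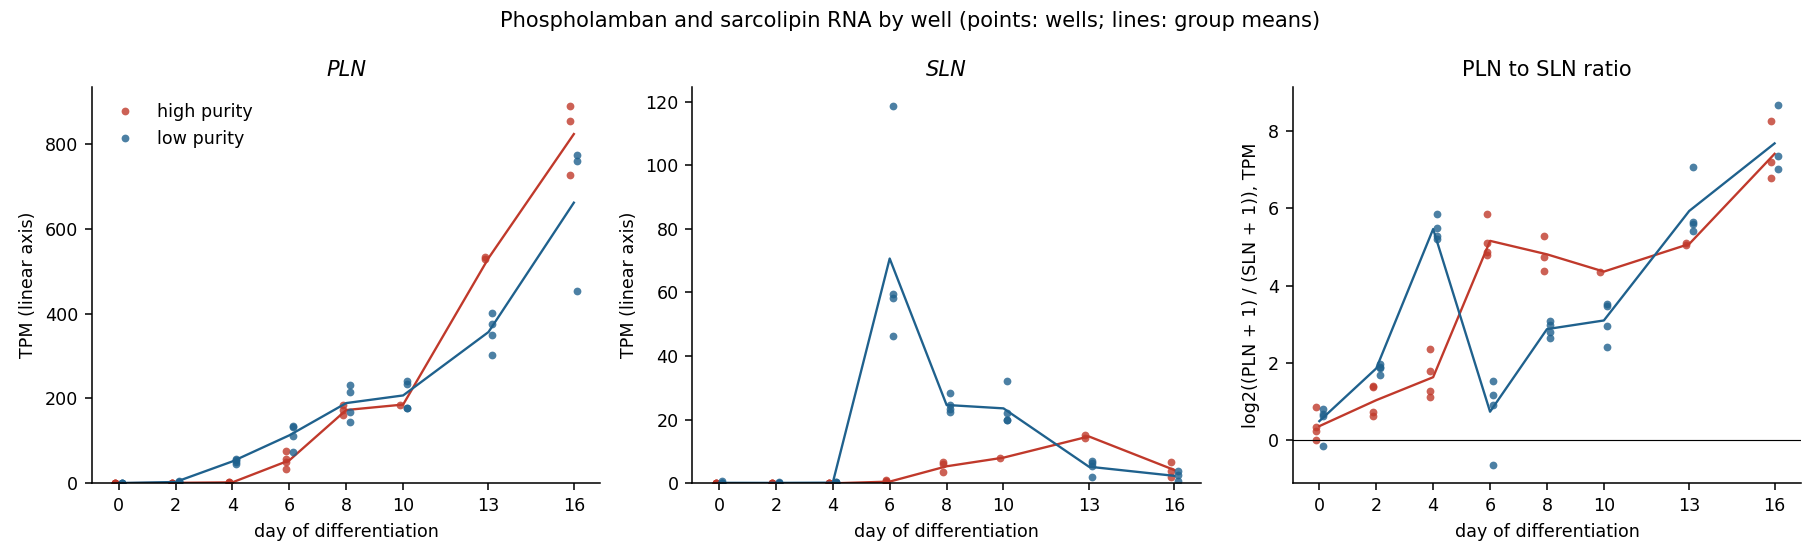
PLN and SLN in the multi-omic wells and their log2 ratio (each TPM + 1) by day, with points for wells and lines through class means. The ratio of the low purity wells drops from 5.22 to 5.86 on day 4 to -0.66 to 1.52 on day 6, while that of the high purity wells lies at 4.80 to 5.87 on day 6.

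The exchanger SLC8A1 followed PLN on day 4 and RYR2 later. Its wells of day 4 stood at 2.16, 1.77, 1.73 and 3.00 TPM in the high and at 51.3, 48.5, 44.4 and 53.4 TPM in the low purity differentiation. They did not overlap, and the difference was -3.98 (SE 0.19, adjusted p = 1.24e-21 by limma). On day 6 the classes overlapped, at 93.4 to 197 TPM and 64.5 to 131 TPM. High purity wells were above low purity wells on day 8 (397 to 479 TPM against 194 to 304 TPM), a difference of 1.05 (SE 0.21, adjusted p = 3.65e-05). That call was lost without high purity well 4 (0.96), low purity well 1 (0.94) or low purity well 4 (0.99). On day 16 they stood at 530.2 to 594 TPM and 170.2 to 277 TPM, a difference of 1.48 (SE 0.22, adjusted p = 2.43e-07). SLC8A1 TPM over ATP2A2 TPM was 2.08 (1.94 to 2.18) in high and 1.09 (0.911 to 1.19) in low purity wells on day 16, with no overlap. The antisense gene SLC8A1-AS1 overlaps 9.31% of its exon bases, and without a stated use of strand its reads cannot be told apart there.

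Whether the difference between the classes itself changed from day 4 to day 16 was tested in the same limma fit. It was called for 5 members, all toward the high purity differentiation, where 15.5% of all genes were called and 6.79% in that direction. The changes were 5.46 (SE 0.29) for SLC8A1, 4.63 (SE 0.35) for PLN, 3.92 (SE 0.20) for RYR2, 2.95 (SE 0.17) for JPH2 and 1.99 (SE 0.42) for HRC, with adjusted p from 2.33e-20 to 1.30e-04. TRDN, higher in high purity wells on both days, had a change of -0.02 (SE 0.39). CASQ2 changed toward the low purity differentiation, by -0.72 in this fit and not called. On recovered reads its change was -3.16 with edgeR and -3.31 with DESeq2. CASQ2 had 0 to 5 reads in the high purity wells of day 4 and 0 to 1 in the low purity wells.

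To state the members per unit of sarcomere RNA, the mean log2 level of TNNT2, TNNC1, ACTN2, MYBPC3 and TTN in each library was subtracted from every gene. TNNT2 encodes the troponin by which purity was measured. Relative to that reference, no member was called higher in high purity wells. On day 16, RYR2 (0.27, SE 0.17), TRDN (0.48, SE 0.19), HRC (0.63, SE 0.21) and SLC8A1 (-0.18, SE 0.14) were not called, whereas ATP2A2 (-1.12, SE 0.21), PLN (-1.09, SE 0.21), CASQ2 (-2.15, SE 0.34) and ASPH (-1.09, SE 0.20) were called lower in high purity wells by limma. These 4 of 10 stood against 85.2% of all genes called, with medians of -0.87 for the members and -1.66 for all genes. Without low purity well 1, ATP2A2 (-0.99) and ASPH (-0.93) lost the call, which left 2. PLN lost the call without high purity well 1 (-0.994). On day 6 SLN (-5.62, SE 0.38) and PLN (-1.30, SE 0.18) were called lower in high purity wells, where 9.38% of all genes were called. Days 8 and 13 had 2 and 3 members called, all lower, against 70.8% and 82.4% of all genes.

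The RNA-only collection gave each line's own comparison up to day 6 or 7. In its 24 libraries, 0 of the 10 members were called between high and low purity at any of the 4 stages with edgeR's quasi-likelihood test paired by line, as were 0.0% of all 24810 genes. Unadjusted, 0, 0, 1 and 6 members had p under 0.05 at stages 1 to 4. DESeq2 called 2 members at stage 4, TRDN (2.59) and SLC8A1 (1.89). The shares of all genes with such a p or called by DESeq2 are not given here. These counts are therefore not set against other genes. At that stage 7 members (RYR2, ATP2A2, PLN, TRDN, HRC, SLC8A1 and ASPH) were higher in the high purity library in 3 of 3 lines, as were 14.8% of the 18743 genes with at least 1 TPM in 3 libraries, and JPH2 was in 2, SLN in 1 and CASQ2 in 1. RYR2 was the sole member whose classes did not overlap there, at 13.6 to 20.2 TPM (high) and 5.29 to 9.17 TPM (low), as for 10.5% of all genes. The median high minus low difference of the members at stage 4 was 1.24 and that of all genes -0.001.

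The size of these differences varied with the line and the gene. For SLC8A1, HRC and TRDN the ratio of high to low was greatest in H9. Its low purity library of day 7 held 1.23 TPM of SLC8A1, 0.150 TPM of HRC and 0.0165 TPM of TRDN, against 29.6, 34.6 and 0.890 TPM in the high purity library. The low purity values of HRC and TRDN there rested on 6 and 3 reads. IMR90-4 held SLC8A1 at 75.4 (low) and 87.4 (high) TPM and JPH2 at 34.8 and 32.1 TPM. WTC11 lay between for SLC8A1 and HRC, with 18.6 and 45.0 TPM of SLC8A1 and 7.17 and 19.4 TPM of HRC on day 6. For PLN and RYR2 the ratio of high to low was greatest in WTC11 (3.82 and 2.58), against 2.20 and 2.40 in H9, and lower in IMR90-4. At the stage before, the low purity H9 library stood apart with 22.9 TPM of RYR2, where the other 5 libraries held 0.493 to 3.62 TPM. It also held 28.9 TPM of TNNT2, 5.09 TPM of ACTN2 and 2.03 TPM of PLN on that day, each above the other 5 libraries. SLC8A1 (0.688 TPM) and JPH2 (2.01 TPM) did not stand above the others there.

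The lead of low purity WTC11 on day 4 was not found in the RNA-only libraries of that line. There PLN was at 0.129 TPM in the low and 1.41 TPM in the high purity library, SLC8A1 at 0.231 and 0.915 TPM, JPH2 at 1.79 and 5.08 TPM and RYR2 at 1.16 and 1.89 TPM. In each, the high purity library was the higher, opposite to the multi-omic wells of day 4, though the low purity labels of both collections carry passage 69. TNNT2 was at 0.613 TPM (low) and 2.78 TPM (high). The collections differ in library kit, and their high purity WTC11 differentiations in passage (52 and 81). Whether the low purity libraries of both collections came from the same differentiation is not stated in the labels. Each RNA-only value is from 1 library, and the difference between collections was not tested.

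For PLN against SLN, the RNA-only ratios at stage 4 were higher in the high purity library in all 3 lines. The log2 ratio was 0.41 (low) and 2.88 (high) in H9, 3.15 and 4.88 in IMR90-4, and 3.09 and 4.49 in WTC11, the same direction as in the multi-omic wells on day 6. The genes behind the ratio differed, since PLN was higher in the high purity library of each line (16.2 against 7.34 TPM in H9, 35.8 against 22.3 TPM in IMR90-4, and 39.8 against 10.4 TPM in WTC11) and lower in the high purity wells of day 6 (mean 54.2 against 113 TPM). SLN itself was at 5.28 TPM (63 reads) in the low and 1.33 TPM (16 reads) in the high purity H9 library, at 1.64 and 0.252 TPM (17 and 4 reads) in IMR90-4, and at 0.343 and 0.821 TPM (6 and 13 reads) in WTC11. In WTC11 SLN was thus higher in the high purity library, and the higher ratio there came from PLN alone. The SLN levels of IMR90-4 and WTC11, at most 1.64 TPM, were close to the 1 TPM added to each gene. In the 18 libraries of stages 1 to 3 SLN had at most 3 reads.

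Across stages, with both classes in the fit and each differentiation as its own block, PLN was called higher than at stage 1 from stage 2 on and JPH2 from stage 3 on. The number of members called was near the share of all genes until stage 4. At stage 2, PLN was higher (2.03) and SLC8A1 lower (-1.98) by edgeR, 2 of the 9 members tested where 25.6% of all genes were called. At stage 3, PLN (2.25) and JPH2 (3.11) were called higher (36.2% of all genes called, 20.5% higher). With limma on TPM, 0 members were called at stage 2 and 1 at stage 3. Stage 4 had 6 of 9 called higher (39.5% of all genes called, 23.4% higher), namely SLN (7.49, SE 1.2), PLN (7.17, SE 0.64), JPH2 (5.28, SE 0.66), SLC8A1 (4.41, SE 0.73), HRC (3.08, SE 0.70) and RYR2 (2.37, SE 0.75). SLN had 0 reads in every library of stage 1, so the size of its rise has no measured base and does not rank it above PLN. ATP2A2, ASPH and TRDN were not called, and CASQ2, with at most 14 reads in a library, was too low to be tested. TRDN stood highest in WTC11 at stages 1 and 2, at 9.0 and 4.20 TPM on day 0 and 7.22 and 10.3 TPM on day 2 (low and high), against 0.233 and 0.236 TPM on day 0 in H9 and 0.489 and 0.641 TPM in IMR90-4. On day 3 IMR90-4 held 3.10 and 3.40 TPM of TRDN, and H9 0.0706 and 0.169 TPM.

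**Figure D5:**
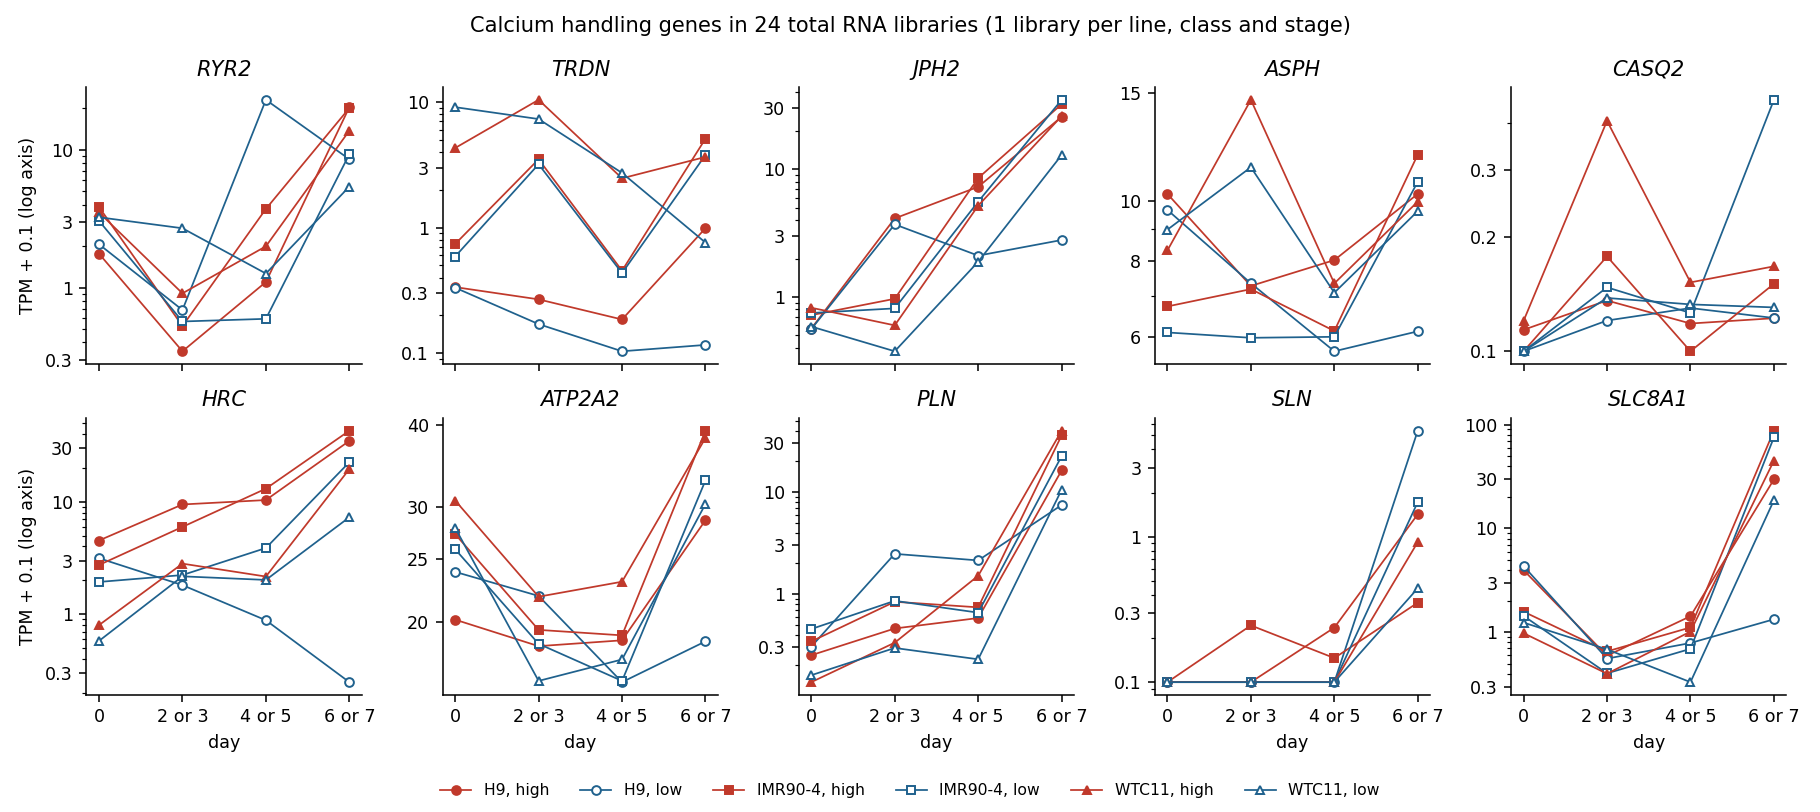
Levels of members in the 24 RNA-only libraries (TPM on a log axis) by stage, with a line for each cell line and purity class, 1 library per point. At the last stage the high purity libraries lie above the low purity libraries of the same line for PLN, RYR2 and SLC8A1, and the low purity H9 library holds 22.9 TPM of RYR2 on day 5.

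Genes with courses most like those of RYR2, PLN and SLN were looked up by Pearson's r of the log2 levels over the 56 multi-omic libraries among 13355 genes. Libraries of a day share wells' age and composition, so r is a description. RYR2 was most like ACTN2, the sarcomere Z-disc protein (r = 0.985), then PPARGC1A, MTUS2, MITF and ATP1B1 (0.971 to 0.973). PLN was most like TECRL (0.981), followed by SAMD4A, MIR7978, TGM2 and CACNA1C, the channel that carries the calcium current (0.976 to 0.980). SLN was less like any gene, with ABCA8 at 0.880, NR2F2-AS1 at 0.876 and CFTR, PRKCA and CDH6 from 0.856 to 0.868.

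Of a list of 53 other calcium handling genes, 49 could be tested. On days 0, 2, 4, 6, 8, 13 and 16, the numbers called higher in high purity wells were 0, 1, 3, 2, 9, 8 and 10, and those called higher in low purity wells were 0, 1, 4, 5, 5, 7 and 8. On day 16, 5.76% of all genes were called higher in high and 7.65% higher in low purity wells, on day 13 the shares were 4.55% and 6.23%, and those of the earlier days are given above. The median of the 49 on day 16 was 0.17, against 0.80 for the 10 members. On that day the greatest differences toward high purity were those of RYR1, the ryanodine receptor of skeletal muscle (2.78, SE 0.17; 6.54 ± 1.35 against 0.301 ± 0.108 TPM, SD, n = 3 each), of PPP1R1A, an inhibitor of protein phosphatase 1 (2.13, SE 0.28; 116.5 ± 14.9 against 30.6 ± 6.74 TPM), and of SRL, the luminal protein sarcalumenin (2.12, SE 0.27; 47.0 ± 0.866 against 12.1 ± 2.84 TPM). Toward low purity they were those of the IP3 receptor ITPR2 (-3.23, SE 0.14; 2.95 ± 0.622 against 40.0 ± 6.77 TPM), of the junctophilin JPH4 (-2.36, SE 0.18; 1.16 ± 0.608 against 10.7 ± 2.82 TPM) and of BIN1, known from the tubules of the surface membrane (-1.68, SE 0.10; 9.03 ± 1.39 against 36.2 ± 7.80 TPM). By role, 3 of 8 kinase and phosphatase genes were called higher in high purity wells with none lower, 2 of 3 IP3 receptors were called higher in low purity wells with none the other way, and the 15 other release and junction genes were split 2 and 2.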

How the data were processed

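RNA was measured in 56 poly(A) and 24 total RNA libraries of human pluripotent stem cell lines. The authors deposited, for each collection, a table of raw read counts and a table of TPM, each with 43388 genes. STAR 2.5.3a, featureCounts 2.0.3 and hg38 are named per the submitters' processing notes, and how the TPM values were computed and the annotation are not given in the sources used here. From the RNA-only count table, 36 broken lines of 6 genes were left out. In the multi-omic collection the count columns did not carry the reads of the same-named TPM columns (0 of 56 did, 50 had them under another name, 6 had no match), so TPM was tested there. The reads behind the TPM values were recovered with gene lengths solved from the RNA-only tables, and 99.998% came out whole within 0.05 reads.

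TPM + 1 was taken to log2 after TMM scaling for genes with at least 1 TPM in 3 libraries and fitted with limma 3.58.1 (16 group means, 40 residual degrees of freedom). RNA-only counts were tested with edgeR 4.0.16 (R 4.3.3), with the cell line as the pairing block between classes. All 10 members entered the limma fit, SLN only through days 6 and later. Alternatives were no scaling, RLE scaling, other filters and pseudocounts, adjusted p alone, DESeq2 1.42.0, edgeR on recovered reads, the count table under its own names, TNNT2 as the sarcomere reference, a replicate block and leaving out each library. The limma and edgeR tests were also run on simulated data of a simpler design, a single day or stage with a fixed spread. Those runs do not speak for genes with few reads or for the spread between differentiations. Figures were drawn with Python 3.11.15 and matplotlib 3.10.9. Named beside the members were the 3 other calcium genes with the greatest called difference in each direction on day 16 and the 5 genes most like RYR2, PLN and SLN. Members and lists were chosen with earlier results of these data known.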

Additional observations from a re-analysis of the deposited data

Results flagged for a closer look

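In groups of 4 wells, a well far from the other 3 was looked for in 87 groups with a mean of at least 1 TPM, where chance gives about 1 in 20, and 2 were found. JPH2 in low purity well 4 of day 6 was at 15.9 TPM, below the other 3 wells at 20.6 to 21.4 TPM. The same well was also the lowest of its group for PLN (74.7 TPM), TRDN (4.62 TPM), HRC (7.43 TPM), SLC8A1 (64.5 TPM) and RYR2 (42.7 TPM), and the highest for SLN (119 TPM). HRC in low purity well 3 of day 4 was at 4.85 TPM (34 reads), above the other 3 at 3.00 to 3.28 TPM (23 to 28 reads).

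The difference between the classes changed from day 4 to day 16 by limma's test of that change for 5 members, by 3.92 for RYR2, 4.63 for PLN, 2.95 for JPH2, 1.99 for HRC and 5.46 for SLC8A1 on the log2 scale.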

How the results depend on the processing

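Other than with the count table under its own names, counts of members moved beyond 1.5 times under the settings below, and no called single-gene difference between the classes changed direction under any of them.

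With adjusted p alone and no minimum fold, 2, 4, 6, 8, 9 and 8 members were called between the classes on days 0, 2, 6, 8, 13 and 16, 9 and 6 on days 2 and 4 of the high purity differentiation against day 0, 8 on day 4 of the low, and 8 for the change from day 4 to day 16. A pseudocount of 0.1 gave 2 on day 0, 2 on day 2, 5 on day 2 of the high purity differentiation against day 0, and 1 relative to sarcomere genes on day 13. On recovered reads, edgeR and DESeq2 both gave 2 on day 2 between the classes, and 4 and 5 on day 2 of the high purity differentiation against day 0. In the RNA-only collection DESeq2 called 2 at stage 4 between the classes and 5 at stage 2 against stage 1, and limma on TPM called 0 at stage 2 and 1 at stage 3. Shares of all genes called under these settings are not given here. A count that rises under a looser rule therefore need not be particular to the members. Without scaling, the median of all genes shifted to -0.179, -0.133 and -0.118 on days 8, 13 and 16 and by less than 0.05 on the other days, and SLC8A1 on day 8 was 0.82 and not called.

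Under its own column names the multi-omic count table gave other results, as the crossing of its names makes the groups other libraries. Called were 2, 5, 1, 0, 0 and 0 members between the classes on days 0, 2, 4, 6, 8 and 16, 10, 0 and 5 on days 2, 6 and 8 of the high purity differentiation against day 0, 2, 0, 0, 0, 0 and 3 on days 2, 4, 6, 8, 13 and 16 of the low, and 0 for the change from day 4 to day 16. Directions reversed for TRDN on day 0 (2.33), for RYR2 (-2.70) and SLC8A1 (-4.87) on day 2, for RYR2 (0.12), JPH2 (0.61) and SLC8A1 (0.72) on day 4, and for HRC (-0.52) and SLC8A1 (-1.04) on day 8. They also reversed on day 13 for RYR2 (-3.17), PLN (-8.59), SLN (-5.01), JPH2 (-5.28), HRC (-2.65) and SLC8A1 (-7.01), and on day 16 for RYR2 (-0.70) and SLC8A1 (-3.28). The change from day 4 to day 16 reversed for RYR2 (-0.82), PLN (-3.15), JPH2 (-2.81), HRC (-0.53) and SLC8A1 (-4.00).

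Leaving out each library in turn gave, between the classes, 0 to 0 members on day 0, 0 to 1 on day 2, 5 to 5 on day 4, 1 to 2 on day 6, 3 to 4 on day 8, 5 to 5 on day 13 and 4 to 5 on day 16. The 1 on day 2 was PLN without high purity well 1 (-1.04), high purity well 4 (-1.07) or low purity well 2 (-1.04), and the 1 on day 6 came without high purity well 3 or low purity well 2. Against day 0 the ranges were 2 to 2, 2 to 3, 5 to 5, 9 to 9, 9 to 9 and 9 to 9 in the high purity differentiation and 5 to 7, 5 to 5, 6 to 7, 7 to 8, 8 to 8 and 8 to 8 in the low on days 2, 4, 6, 8, 13 and 16, and 5 to 6 for the change from day 4 to day 16. Relative to sarcomere genes they were 2 to 2, 2 to 3, 2 to 3 and 2 to 5 on days 6, 8, 13 and 16, with 2 on day 16 without low purity well 1. The difference in PLN to SLN ratio had lowest values of -0.34, -0.95, -4.08, 3.97, 1.70, -1.03 and -0.70 and highest values of -0.01, -0.69, -3.67, 4.69, 2.15, -0.47 and 0.22 on days 0, 2, 4, 6, 8, 13 and 16. In the RNA-only collection they were 0 to 0 at each of the 4 stages between the classes, and 1 to 4, 2 to 3 and 4 to 6 at stages 2, 3 and 4 against stage 1, with 1 at stage 2 without IMR90-4 and 4 without WTC11.

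The numbers of the wells did not pair the samples, since deviations of same-numbered wells correlated by -0.018 to 0.032. With the well number as a replicate block, 24 of 24 counts stayed within 1.5 times, SLN passed the threshold for the change from day 4 to day 16 (1.04), and ASPH on day 13 relative to sarcomere genes did not (-0.97). Without the line as a block, all 7 RNA-only counts stayed within 1.5 times. Depth limited SLN and CASQ2, which had 0 to 3 reads in most wells of days 0 to 4, and each RNA-only comparison rested on 3 lines with 1 library a class.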

Other observations

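Further genes of the calcium list are given here by their level on day 16, named after their values were seen. The calsequestrin of skeletal muscle, CASQ1, was at 14.6 to 16.6 TPM in high and 7.68 to 9.94 TPM in low purity wells, above CASQ2 (1.71 to 2.28 and 3.21 to 3.75 TPM) in every well. TMEM38A, a potassium-permeable channel of the sarcoplasmic reticulum, was higher in high purity wells (2.02, SE 0.26, adjusted p = 9.77e-09 by limma), at 46.9 to 50.5 TPM against 8.26 to 17.0 TPM. ITPR1, an IP3 receptor, was higher in low purity wells (-1.16, SE 0.12, adjusted p = 5.75e-11 by limma). It was at 42.3 to 48.8 TPM in low and 14.5 to 20.5 TPM in high purity wells. The calcium pump of the surface membrane ATP2B1 (-1.43, SE 0.09) and the mitochondrial calcium channel MCU (-1.29, SE 0.10) were also called higher in low purity wells. The alternative pumps of the store stayed low beside ATP2A2, with ATP2A1 at 1.04 to 2.15 TPM and ATP2A3 at 0.732 to 3.87 TPM in the 6 wells of day 16.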
